A study of Homo sapiens with 6 samples.

Results

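Hematopoietic microRNA loci are described here by the binding of SMARCA4, the ATPase subunit of the SWI/SNF chromatin remodelling complex, in K562 cells. The 8 members were MIR144, MIR451A, MIR17HG, MIR223, MIR155HG, MIR22HG, MIR21 and MIR150, named for the role of these microRNAs in blood cells. A peak was assigned to a member when it shared at least 1 bp with the annotated gene extended by 10 kb on each side. The annotation holds 64449 genes, and of the 28265 peaks in the list 21 lay in the windows of these 8.

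The peaks come from 3 replicate ChIP libraries made with a SMARCA4 antibody and 3 input libraries made without one, all from K562, an established human line grown from a chronic myelogenous leukaemia. The sample descriptions name the ChIP libraries as G4 ChIP-seq, while titles and antibody labels give SMARCA4, and the sources call the replicates technical in one place and biological in another, so presence in at least 2 replicates may reflect technical repeats alone. All 6 libraries were made from chromatin fixed with 2 mM disuccinimidyl glutarate for 30 min followed by 1% formaldehyde for 10 min, and sheared to fragments of 150 to 400 bp. Regions called in at least 2 of the 3 ChIP replicates make up the list, which gives a start and an end per region in hg19 and no height, read number or value per replicate. With a single condition and pooled replicates, no SD and no test between groups can be given, so counts are set beside the same count over all genes or all peaks where one was made.

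MicroRNAs are cut from long primary transcripts as hairpins, which are processed into strands that pair with messenger RNAs mainly through the seed near the 5′ end. The start of the primary transcript, where its promoter lies, can be several kilobases from the hairpin, so an annotated hairpin does not mark its promoter. MiR-144 and miR-451a share a primary transcript that accumulates as red cells mature, miR-223 is best known in granulocytes and monocytes, and miR-150 and miR-155 in resting and activated lymphocytes.

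Mature sequences from the RefSeq table (GRCh38.p14) are printed to show which products the loci encode, with the seed, bases 2 to 8, in capitals. Of 13 microRNA symbols looked for, 11 matched, and miR-451a and miR-150 are given by name. The 11 sequences carried 9 different seeds. MiR-17-5p and miR-20a-5p shared one of them, and miR-19a-3p and miR-19b-3p another, all 4 from MIR17HG.
miR-17-5p: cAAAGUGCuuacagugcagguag
miR-20a-5p: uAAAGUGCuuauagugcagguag
miR-19a-3p: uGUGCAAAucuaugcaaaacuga
miR-19b-3p: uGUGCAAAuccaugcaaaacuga
miR-18a-5p: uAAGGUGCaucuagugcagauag
miR-92a-3p: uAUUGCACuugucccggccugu
miR-144-3p: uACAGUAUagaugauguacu
miR-223-3p: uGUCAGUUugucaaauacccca
miR-22-3p: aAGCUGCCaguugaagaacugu
miR-21-5p: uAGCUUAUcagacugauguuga
miR-155-5p: uUAAUGCUaaucgugauagggguu

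Stretches of peaks that bear on the results below are printed from the plus strand of hg19, with GATA sites in capitals. A GATA site was AGATAA or AGATAG or TGATAA or TGATAG on either strand, so a site on the minus strand reads TTATCT or CTATCT or TTATCA or CTATCA here. In the distal peak of MIR223 the capitals of the last run also cover a composite, CANNTG followed by GATA after 5 to 10 bases, here on the minus strand. In the MIR22HG line the capitals mark an AP-1 site, TGACTCA or TGAGTCA. A match to these letters describes the sequence and is not evidence that a factor was bound.
MIR144/MIR451A, upstream peak, chr17:27192466-27192560: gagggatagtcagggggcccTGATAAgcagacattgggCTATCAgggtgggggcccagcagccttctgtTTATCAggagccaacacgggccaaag
MIR144/MIR451A, start of the host transcript, chr17:27188989-27189048: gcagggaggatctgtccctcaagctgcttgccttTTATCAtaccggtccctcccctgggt
MIR223, distal upstream peak, chrX:65229189-65229307: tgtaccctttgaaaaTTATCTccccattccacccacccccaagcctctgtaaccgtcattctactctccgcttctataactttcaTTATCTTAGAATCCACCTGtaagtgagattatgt
MIR223, start of MIR223HG, chrX:65235209-65235276: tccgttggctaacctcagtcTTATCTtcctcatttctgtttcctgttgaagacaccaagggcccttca
MIR21, peak at the end of VMP1, chr17:57919644-57919729: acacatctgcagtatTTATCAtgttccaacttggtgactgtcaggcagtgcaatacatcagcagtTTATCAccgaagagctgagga
MIR22HG, start, chr17:1620433-1620488: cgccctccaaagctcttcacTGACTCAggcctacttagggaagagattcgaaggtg

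A G4 motif had 4 runs of at least 3 G, separated by 1 to 7 bases and searched for on both strands. Such motifs are printed for the 2 loci where they lay in peaks of over 1300 bp. The capitals mark the whole motif, on the plus strand of hg19.
MIR17HG, chr13:92000581-92000609: GGGGCCCGGGGCGCGCGCGGGGCGTGGGG
MIR17HG, chr13:92001041-92001065: GGGGCGGGCTGCACGGGGGTGAGGG
MIR17HG, chr13:92001270-92001288: GGGAAACGGGTTGGGGGGG
MIR144/MIR451A, upstream peak, chr17:27192458-27192482: GGGCCTGGGAGGGATAGTCAGGGGG

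Of the 8 members 7 had a peak, MIR155HG being the member with none. Since MIR144 and MIR451A share one window, the same result is 6 of 7 loci. The corresponding share was 36.6% of all 64449 annotated genes (95% Wilson interval 36.2 to 37.0%), 21.3% of the 3049 annotated microRNA genes (19.9 to 22.8%), 29.7% of the 1325 microRNA genes with a MIR symbol (27.3 to 32.3%) and 43.6% of the 78 lncRNA genes with a MIR host symbol (33.1 to 54.6%). Wilson intervals cover counting error only, and neighbouring genes share peaks. The 3 host transcript members, MIR17HG, MIR155HG and MIR22HG, have longer windows than the 5 hairpin members. How far this difference bears on the counts was not tested. Counts with other flank lengths are given in the last section.

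Of the members 5 had a promoter peak, within 1000 bp of a start of the member, beside 21.4% of all genes, 11.5% of microRNA genes with a MIR symbol and 29.5% of host genes. These were MIR144, MIR451A, MIR17HG, MIR22HG and MIR21. For MIR144 the start was that of the matched hairpin, and MIR451A was counted with it, so its call rests on the same position. At MIR21 the peak lay downstream of the hairpin, so it met the distance rule without lying at a transcript start. Of the members 6 had at least 3 peaks, namely MIR144, MIR451A, MIR223, MIR22HG, MIR21 and MIR150, beside 12.7% of all genes, 8.15% of the microRNA genes with a MIR symbol and 19.2% of the host genes.

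**Figure D1:**
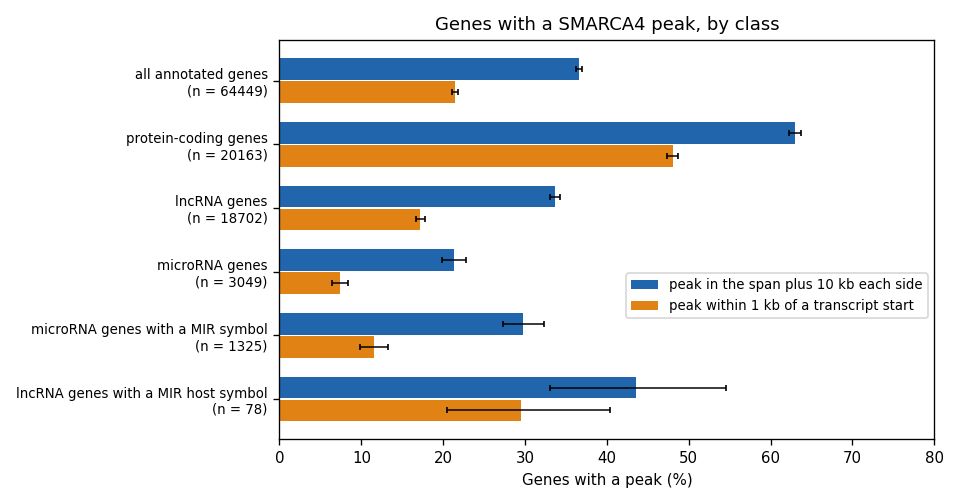
Share of genes with a SMARCA4 peak, in percent, for 6 classes of annotated genes (number of genes in brackets), counted in the gene extended by 10 kb on each side (blue) or within 1 kb of a transcript start (orange). Error bars are 95% Wilson intervals. The microRNA genes lie lowest for both counts, at 21.3% and 7.35%, and the protein-coding genes highest, at 63.0% and 48.1%.

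Of the 21 peaks 8 were promoter peaks by the distance rule, 6 lay farther upstream, 1 lay inside a member and 6 lay downstream. Within 1 kb of a protein-coding gene start lay 8 of the 21 (38.1%, 95% Wilson interval 20.8 to 59.1%), beside 44.7% of all peaks. Within 1 kb of any annotated start lay 14 (66.7%, 45.4 to 82.8%), beside 51.0% of all peaks, leaving 7 with no annotated start nearby. The 21 peaks were chosen for lying at annotated genes, whose own starts count here. All peaks were not chosen in that way, so these shares are not of like sets.

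**Figure D2:**
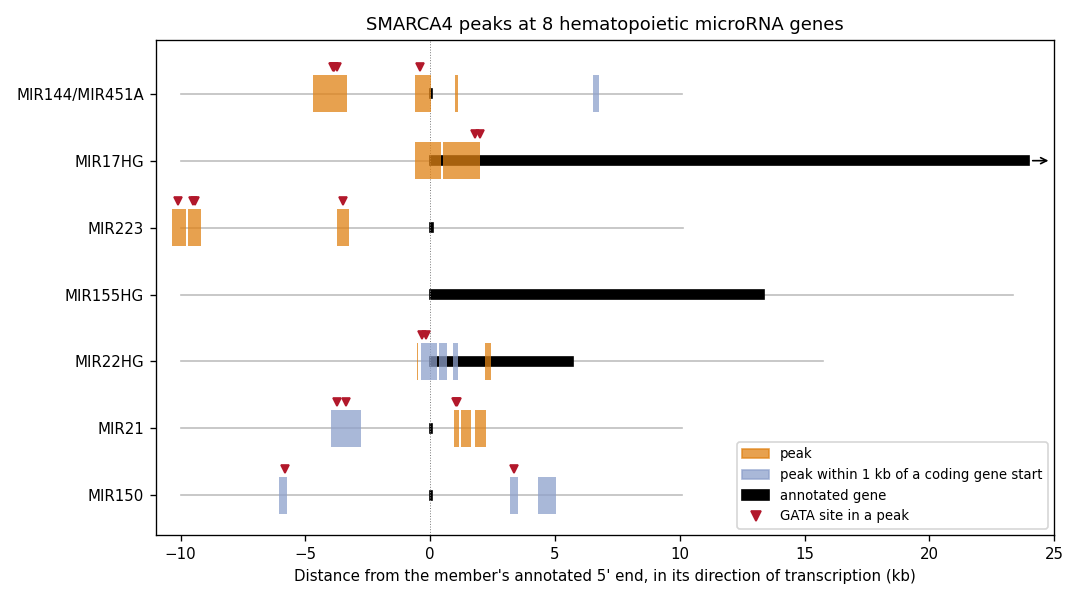
Position of each peak (boxes) and of the GATA sites within the peaks (red triangles) relative to the annotated 5′ end of each member, in kb, with transcription running from left to right. Black bars are the annotated genes (that of MIR17HG runs past the right edge), grey lines the windows, and blue boxes the 8 peaks within 1 kb of a protein-coding gene start. MIR223 has peaks upstream of the hairpin only, and the MIR155HG window is empty.

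The locus of MIR144 and MIR451A, the erythroid pair, held 4 peaks. MIR144 lies at chr17:27188551-27188636 on the minus strand, placed by the single exact match of its RefSeq hairpin to hg19. MIR451A was counted with the same window, since in RefSeq the hairpins are separated by 92 bp. As many peaks or more were found at 3.92% of the microRNA genes with a MIR symbol and at 7.51% of all genes.

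One of these peaks, chr17:27188613-27189228, was 616 bp wide, began within the MIR144 hairpin and ran to 592 bp upstream of its 5′ end. It covered the annotated start, at position 27189009, of the lncRNA ENSG00000264066, which is transcribed through the hairpin, and all of the MIR4732 hairpin (chr17:27188673-27188748). Its single GATA site lay 14 bp upstream of that lncRNA start, in the sequence printed above. The mature miR-144-3p sequence lay 28 bp from the edge of the peak.

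The next peak upstream, chr17:27191987-27193329, lay from 3.35 to 4.69 kb before the hairpin in intergenic sequence, with no annotated start within 1 kb. At 1343 bp it was wider than 97.4% of all peaks. It held 4 GATA sites, whereas peaks of like width (within 10%) held 1.96 on average and 21.9% of them had as many. Of these sites 3 fell within 55 bp, and 1.13% of all peaks, or 10 of the 836 peaks of at least 1300 bp, had 3 sites in as short a stretch. The length of 55 bp was taken from this peak after its sites had been seen. A G4 motif ended 3 bp before the first of the 3, and 63.6% of peaks of like width held such a motif. The peak also held 2 AP-1 sites, which 5.80% of peaks of like width had.

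Downstream of the hairpins were a 92 bp peak in an exon of ERAL1, which encodes a mitochondrial ribosome assembly GTPase, and a 207 bp peak over divergent starts of ERAL1 and FAM222B, 6.54 to 6.75 kb away. Neither held a GATA site. Beyond the window the nearest peaks were 11.2 kb upstream, a 239 bp intergenic peak with 2 GATA sites, and 18.7 kb downstream in FAM222B.

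MIR17HG, the host transcript of the miR-17 to miR-92a cluster, which promotes proliferation of blood cell precursors, held 2 peaks, both at its 5′ end. The first, chr13:91999312-92000365 (1054 bp), covered the most upstream start and 5 further annotated starts. The second, chr13:92000464-92001952 (1489 bp), began 98 bp later, covered 4 more starts and was wider than 98.2% of all peaks. The remaining 4 of the 14 annotated starts lay 1685 to 2886 bp past it.

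These were also the peaks with the highest CpG content, at 1.04 and 1.01 times the number expected from their base composition, with 69.4% and 64.7% G and C. GGGCGG, the GC box read by SP and KLF factors, occurred 14 and 10 times, and 1.97% and 21.6% of peaks of like width had as many. The second peak held 4 G4 motifs, of which 3 are printed above, all on the strand of the transcript, and 21.1% of peaks of like width had as many. The first had no G4 motif and no GATA site, and 61.2% of peaks of like width had at least 1 GATA site. Both GATA sites of the second peak were near its downstream end, 1793 and 1981 bp from the start of the gene. The 6 mature microRNAs of the cluster followed in order, from miR-17-5p at 920 bp to miR-92a-3p at 1663 bp past the peak. No other peak lay within 262.2 kb upstream or 142.5 kb downstream of the gene.

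MIR223 (chrX:65238712-65238821, plus strand) had 3 peaks, all upstream, and none within 1000 bp of the hairpin. They had similar widths of 531, 527 and 494 bp. The nearest, chrX:65234969-65235462, ended 3250 bp before the hairpin and covered all 3 annotated starts of MIR223HG, the host transcript. Its GATA site lay 22 bp upstream of the first of these starts. A GATA site within the 40 bp before the start was present at 5.08% of all 64449 gene starts, at 1.92% of the 8375 starts that lay in a peak and at 2.83% of the 1872 lncRNA starts in a peak. Both the MIR223HG start and the ENSG00000264066 start at MIR144 belonged to this group, an observation made after their sequences had been seen.

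The other 2 peaks, chrX:65228385-65228915 and chrX:65229010-65229536, lay 94 bp apart, 9.18 to 10.33 kb upstream of the hairpin, in intergenic sequence. The first reached past the window edge. Both were poor in G and C, at 37.7% and 38.3%, and 94.4% and 93.2% of peaks of like width had as much or more. Each of the 3 MIR223 peaks had a GATA site of the form AGATAA within the 200 bp around its centre. MIR223 was the only member with a GATA site in every peak, while 57.6%, 57.8% and 56.1% of peaks of like width held one. Over all peaks 40.2% had a site in the central 200 bp and 32.6% one of the form AGATAA. These are separate shares over peaks of every width, and the share meeting both conditions was not computed. The second of the distal peaks carried 2 sites, one of them in the composite with an E-box, which 11.0% of peaks of like width held. A further intergenic peak, 282 bp with 4 GATA sites, lay 12.5 kb upstream, outside the window, whereas the nearest downstream peak was 131.2 kb away.

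MIR22HG (chr17:1614741-1620468, minus strand), host of the widely expressed miR-22, had 5 peaks, the most of any member, beside 14.1% of host genes with as many. They were 35 to 635 bp wide and separated by 75 to 1056 bp. The widest, chr17:1620209-1620843, covered the most upstream annotated start. It held 2 GATA sites at 171 and 328 bp upstream of that start, a G4 motif, and the AP-1 site printed above, centred 12 bp downstream of it. An AP-1 site occurred in 20.2% of peaks of like width.

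A 336 bp peak covered the 4 annotated starts of WDR81, a gene on the opposite strand, that lie inside MIR22HG. The 209 bp peak next to it covered part of a dense group of alternative MIR22HG starts, beginning at position 1619500, and had the highest G and C content of the 21 peaks, at 70.8%. A 262 bp peak lay in an intron, 798 bp before the mature miR-22-3p sequence. The fifth peak was 35 bp wide and lay 487 to 521 bp upstream. In the window lay also the start of TLCD2, 4356 bp from the nearest peak. Of the 5 peaks 4 held no GATA site.

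MIR21 (chr17:57918627-57918698, plus strand) lies near the 3′ end of VMP1, a gene for a membrane protein of autophagy, and its product is abundant in many tumours. A total of 4 peaks surrounded the hairpin, and none overlapped it. The upstream peak, chr17:57914643-57915837, was 1195 bp wide, wider than 96.1% of all peaks, and lay 2.79 to 3.98 kb before the hairpin. It covered 4 annotated internal starts of VMP1, from position 57914989 to 57915312, and a further start lay 45 bp before it. It held 2 GATA sites and 2 RUNX motifs (TGTGGT), and 40.2% of peaks of like width had a RUNX motif. With 41.3% G and C it was poorer than most wide peaks, since 93.2% of peaks of like width had as much or more.

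Downstream of the hairpin 3 peaks lay in a row, 93 and 169 bp apart, between 0.93 and 2.22 kb from its 5′ end. The first, chr17:57919560-57919779, covered the 3′ end of VMP1. It was 220 bp wide with 2 GATA sites, whereas peaks of like width held 0.690 on average. At 9.09 sites per kb it was the densest of the 21 peaks. The other two, 378 and 429 bp wide, lay past the end of VMP1 and had no GATA site, and the last held an AP-1 site. RNU6-450P, an snRNA gene, started in the window 4057 bp from a peak. Beyond the window, a 545 bp peak with 2 GATA and 2 AP-1 sites lay 11.5 kb upstream in an intron of VMP1, and the nearest downstream peak lay 57.9 kb away in RPS6KB1.

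MIR150 (chr19:50004042-50004125, minus strand), which is abundant in mature lymphocytes, had 3 peaks in its window, each of them within 1 kb of a protein-coding gene start, and none within 1000 bp of the hairpin. Upstream a 301 bp peak (chr19:50009882-50010182) covered the start of FCGRT, which encodes the neonatal Fc receptor, and held 1 GATA site. The 8960 bp around the hairpin, with the start of the pseudogene COX6CP7, had no peak, and the nearest peak was 3121 bp from the hairpin. The starts of RPL13A, SNORD34 and SNORD35A, also in the window, lay 889 to 1224 bp from a peak outside it. Without the peaks near protein-coding starts, a setting chosen after seeing the data, MIR150 had none and 6 of the 8 members kept a peak. No share over all genes was computed for this setting.

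MIR155HG (chr21:26934122-26947480, plus strand), the host of miR-155 in activated lymphocytes, had no peak. The nearest, chr21:26979675-26980144, was 470 bp wide, lay 32.2 kb past the end of the gene at the start of MRPL39, a mitochondrial ribosomal protein gene, and held no GATA site. Of all genes 49.6% lay as far from a peak or farther. On the upstream side the nearest peak was 1288.9 kb away. The peakless stretch around MIR155HG was 1.33 Mb long. Gaps at least as long made up 1.40% of the 28241 gaps between neighbouring peaks, and 12885 of the 64449 annotated genes lay in such a gap or in one as long at a chromosome end. The lncRNA ENSG00000260583, whose start also lies in the window, was 24037 bp from a peak. With no heights or read numbers in the list, a region without a peak cannot be told apart from one with a signal under the calling threshold.

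The 21 peaks had a median width of 429 bp (95% binomial interval 262 to 635 bp). The median of all peaks, 368 bp, lies inside this interval. Intervals over the 21 peaks treat them as independent, although some are close neighbours, as little as 75 bp apart. They ranged from 35 to 1489 bp and covered 11405 bp in total. The 4 widest were the second and first MIR17HG peaks and the upstream peaks of MIR144 and MIR21. None of the 4 overlapped the hairpin of a member.

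**Figure D3:**
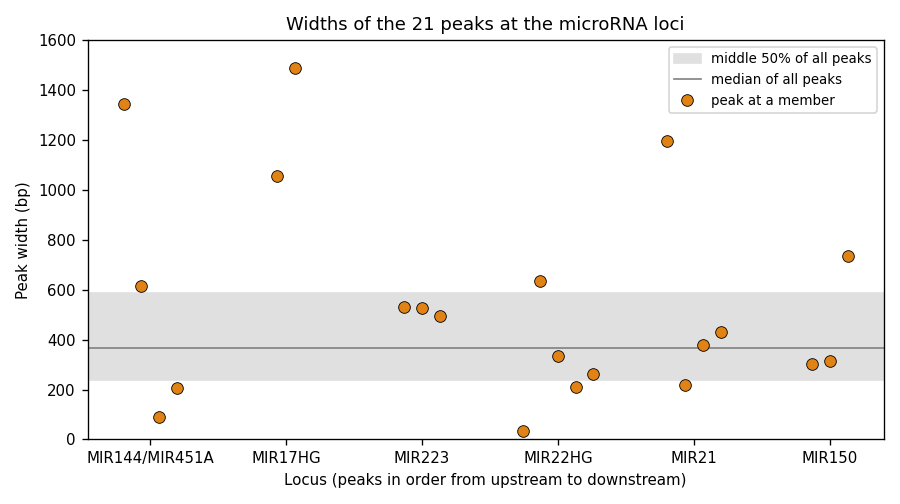
Width in bp of each peak at the 6 loci that have one (points, from upstream to downstream within a locus), with the median of all 28265 peaks (line, 368 bp) and their middle 50% (grey band, 237 to 586 bp). The points above 1000 bp belong to MIR144/MIR451A, MIR17HG and MIR21.

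Of the 21 peaks 11 held at least 1 site (52.4%, 95% Wilson interval 32.4 to 71.7%), beside 51.3% of all peaks. Summed over the 21 peaks, the shares of peaks of like width with a site came to 10.9. The number of sites was 19, and the corresponding sum of means was 23.2. Per kb of peak there were 1.67 sites, beside 2.24 over all peaks, and 33.3% of the 21 had a site in the 200 bp around the centre, beside 40.2% of all peaks. For a peak under 200 bp this stretch reaches past its edges, and 1 of the sites, at the 92 bp peak in ERAL1, lay outside the peak. The stricter form AGATAA was present in 33.3% of them and in 32.6% of all peaks. Of the 10 peaks without a GATA site 4 were at MIR22HG, and the widest was the first MIR17HG peak.

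**Figure D4:**
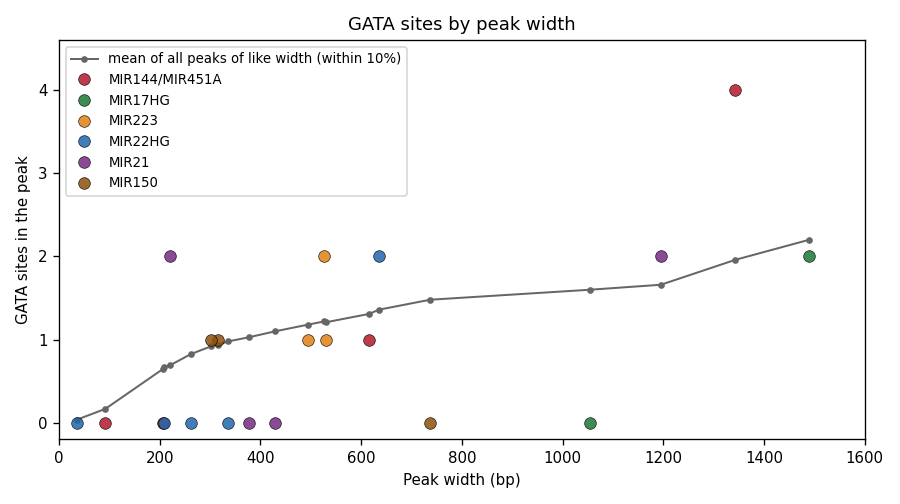
Number of GATA sites in each of the 21 peaks (coloured points, by locus) against peak width in bp, with the mean number in all peaks within 10% of the same width (grey line). The upstream peak of MIR144/MIR451A, with 4 sites at 1343 bp, lies farthest above the line.

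G4 motifs were found in 4 of the 21 peaks, where the shares at like width summed to 5.76, and AP-1 sites in 3, where they summed to 3.66. The other motifs were set beside all peaks, without regard to width. An E-box of the form CAGCTG was in 5 of the 21 peaks and in 7059 of all 28265. A RUNX motif was in 23.8% of them (20.9% of all peaks), the ETS motif GGAAGT in 33.3% (27.6%) and GGGCGG in 47.6% (39.3%). The median G and C content was 55.9%, beside 53.2% for all peaks, and the median of a locus ran from 38.3% over the MIR223 peaks and 43.1% over the MIR21 peaks to 67.0% over those of MIR17HG.

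**Figure D5:**
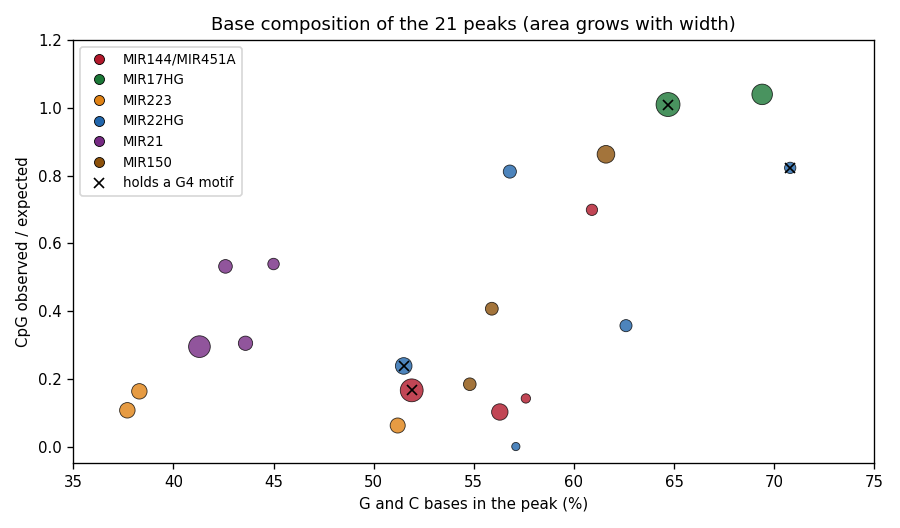
Observed over expected number of CpG dinucleotides against the G and C content in percent for each of the 21 peaks, coloured by locus, with larger points for wider peaks and crosses on the 4 peaks that hold a G4 motif. Both MIR17HG peaks lie above 1 on the vertical axis, and the 3 MIR223 peaks lie at or below 0.163.

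Among 43 other microRNA genes known from blood cells, 25 had a peak in the window (58.1%) and 12 had a promoter peak (27.9%), beside 36.6% and 21.4% of all genes. Of the 34 hairpin genes among them 20 had a peak and 8 a promoter peak, where the shares of microRNA genes with a MIR symbol were 29.7% and 11.5%. Of the 9 host or other lncRNA genes 5 had a peak and 4 a promoter peak, where the shares of host genes were 43.6% and 29.5%. Several of these genes are neighbours and share peaks. MIR142, which is expressed throughout the blood system, had 10 peaks, the most in this list, and its widest promoter peak was 2498 bp with 5 GATA sites. The others with a promoter peak were MIR181A2HG, MIR10A, DLEU2 (host of miR-15a and miR-16), MIR210 and its host MIR210HG, MIR191, MIR4732, MIR132, MIR212, MIR193A and MIR29B2CHG. The widest promoter peaks of all 12 genes, MIR142 included, were 10 distinct peaks, that of MIR4732 being the 616 bp peak at MIR144. Of the 10 peaks 8 held a G4 motif and 4 a GATA site. The shares of all peaks of like width summed to 3.85 and 6.15. These 10 were picked as promoter peaks, whereas 51.0% of all peaks lay within 1 kb of any annotated start. A share over promoter peaks of like width was not computed. MIR210 and MIR210HG shared a 622 bp peak with 81.2% G and C and 4 G4 motifs, and MIR132 and MIR212 a 636 bp peak with 80.3% and 4 G4 motifs. The remaining 18 genes had no peak.

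Of 18 genes that make, carry or regulate microRNAs, 16 had a peak and the same number a promoter peak (88.9%). The shares of protein-coding genes were 63.0% with a peak and 48.1% with a promoter peak. The widest promoter peaks, from 3028 to 643 bp, were at the RNA helicase gene DDX5, then at DDX17, TNRC6B, RAN, DGCR8, TARBP2, AGO2, LIN28B, PRKRA, TNRC6C, XPO5 and TNRC6A. DDX5 and DDX17 encode helicases of the nuclear Drosha complex, DGCR8 is the partner of Drosha in cutting hairpins from the primary transcript, and XPO5 exports them from the nucleus with RAN. DICER1, the nuclease that removes the hairpin loop, and AGO4, an Argonaute protein, had no peak, and the nearest lay 222255 and 23844 bp away.

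Among erythroid genes used as markers of K562 identity, GATA1, TAL1, KLF1, HBG1, HBG2 and HBE1 each had a promoter peak, beside 48.1% of protein-coding genes. The annotated HBG2 and HBE1 spans overlap, so they share peaks. Among lymphoid genes PAX5 had a promoter peak, CD79A had a peak in the window but none at its promoter, and CD3D and CD3E had no peak. The hepatic gene ALB had none. A peak is no measure of expression of these genes.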

How the data were processed

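In the authors' processing, cutadapt 1.16 was used for trimming, BWA 0.7.15 for alignment (hg19), Picard 2.14.0 and SAMtools 1.6 against duplicates, MACS2 2.1.1 for calling in each replicate (q threshold 0.05, with an input) and bedtools 2.26.0 for intersecting replicates. Per region the deposited list gives only a start and an end in bp, without a count, score or signal, so the depth behind a peak is unknown here.

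Genes came from GENCODE 44 lifted to hg19 and sequences from hg19. Counts, motif searches and plots were made with Python 3.11.15, numpy 2.4.6, pandas 2.3.3, scipy 1.17.1, pysam 0.24.0 and matplotlib 3.10.9, after the counting functions had been tested on simulated data. Hairpins missing by name were placed by a single exact match of the RefSeq sequence. A promoter peak lay within 1000 bp of an annotated start of the gene, and peaks of like width differed by at most 10%. No test across genes or peaks was run.

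Named were all members, their host genes, genes starting in a member's window, the nearest peak of a member without one, and, in each other list, genes with a promoter peak (the 12 widest where there were more than 12) and genes with no peak where there were at most 12. Some genes of the lists and windows, and a motif sequence, are not reported here. The members and lists were chosen with earlier results of these data known. The alternatives were other windows, promoter distances, GATA definitions and gene classes, a minimum width of 200 bp, merging across gaps of up to 500 bp, and assignment of a peak by its midpoint.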

Additional observations from a re-analysis of the deposited data

How the results depend on the processing

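No paired analysis was possible because the list pools the replicates and holds no value for any of them. Of 59 recomputed values 41 stayed within 1.5 times of a count or within the 95% interval of a share or median, and 18 did not. The window length decided most of these. With no flank 4 members had a peak, 7 peaks were counted, and the shares of all genes and of microRNA genes with a peak were 23.1% and 3.51%. With 5 kb these shares were 31.3% and 15.5%. With 25 kb 34 peaks were counted and the shares were 46.9% and 34.5%, and with 50 kb 51 peaks, 56.8% and 46.0%, when MIR155HG had a peak too and all 8 members did. With peaks of at least 200 bp the shares were 34.4% and 19.5%. Merging peaks at most 500 bp apart raised the median width at members to 676.5 bp. Merging widens peaks elsewhere too, and the median of all merged peaks was not computed. The share of genes with a peak was 63.0% for protein-coding genes and 31.3% for genes of at most 30 kb on autosomes and X.

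Some settings were chosen after seeing the data. Leaving out peaks near protein-coding starts left 13 peaks at 6 members. Counting the starts of host transcripts gave 6 members with a promoter peak, MIR223 among them, and leaving out MIR451A gave 4. For the settings on protein-coding and host starts no matching share over all genes was computed. The share of peaks with a GATA site stayed between 33.3% and 71.4% over all settings, each value within the interval of the main one. The highest came from merging, for which no share over all merged peaks was computed. Without heights or values per replicate, a stricter calling threshold could not be applied.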
